A study of Mus musculus with 4 samples.

Results

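The glycolytic enzymes described here were 10 genes, Hk1, Hk2, Pfkp, Pfkl, Aldoa, Gapdh, Pgk1, Eno1, Pkm and Ldha, out of 19353 genes in the deposited count table. They were found by their gene names, and each name matched 1 row. Glycolysis splits glucose into pyruvate in the cytosol and yields ATP without oxygen, and lactate dehydrogenase can turn the pyruvate into lactate. Hexokinase and phosphofructokinase spend ATP in the upper part of the pathway, and phosphoglycerate kinase and pyruvate kinase regain it in the lower part. Skeletal muscle fibres use the pathway heavily, and muscle stem cells (MuSCs) are known to change their use of glucose when they leave quiescence.

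MuSCs were sorted by yellow fluorescent protein (YFP) from plantaris muscle of Pax7-CreERT2:Rosa-YFP mice, in which a tamoxifen-dependent Cre recombinase made only in Pax7-expressing cells switches YFP on for good. Both groups carried these alleles, so the YFP gate can also hold descendants of Pax7-expressing cells that have lost Pax7. One group came from sham-operated muscle and the other from muscle overloaded for 4 days by cutting the tendons of its synergists (tenotomy), with 2 libraries in each group. Each library was made by CEL-Seq2 from a tube of 100 cells, and whether a group's libraries represent separate animals was not given in the sources used here, so the p-values measure only the spread between these libraries. CEL-Seq2 reads the poly(A) end of a transcript and tags each captured molecule with a random barcode (unique molecular identifier, UMI). A transcript is therefore counted once whatever its length, and levels of different genes are set side by side below on that per-molecule scale.

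There were 269683 and 260488 UMIs in sham replicates 1 and 2 and 387955 and 483528 UMIs in overload replicates 1 and 2, that is 2697, 2605, 3880 and 4835 UMIs per cell. Counts were expressed as TMM-normalized CPM, in which each library is scaled to the same effective total, so that 3 counts equalled 13.1 and 13.6 CPM in the sham libraries and 7.80 and 6.08 CPM in the overload libraries. All 10 MuSC markers listed were detected in every library, and they summed to 6877 and 6120 CPM in sham and to 5122 and 4573 CPM after overload, with 5 of the 10 lower and 2 higher, beside 26.3% and 25.8% of all genes tested. The most abundant of them over the 4 libraries, Sdc4, was represented by 422 and 284 UMIs (sham) and by 375 and 345 UMIs (overload). Markers of other cell types were also detected. Whether the RNA of the myofibre markers came from myofibres or from YFP-positive cells that had begun to differentiate was not tested. The myofibre markers summed to 1889 and 1001 CPM in the sham libraries and to 3479 and 3191 CPM in the overload libraries, and all 7 that could be tested were higher after overload. Acta1, the skeletal muscle actin and the most abundant of these markers, was represented by 120 and 66 UMIs (sham) and by 299 and 342 UMIs (overload), while Myh1 and Myh2 were at 0 in both sham libraries. The summed level was thus higher in sham replicate 1 than in sham replicate 2. The leukocyte markers summed to 17.4 and 31.7 CPM in sham and to 195 and 304 CPM after overload, with 7 of the 10 at 0 in both sham libraries (Lyz2, the most abundant after overload, Cd74, Csf1r, Adgre1, Tyrobp, Fcer1g and Ctss). The endothelial markers summed to 82.7 and 77.0 CPM in sham and to 265 and 196 CPM after overload, with Egfl7 and Cldn5 at 0 in sham. Fabp4 made up most of the difference, with 1 and 1 UMIs (sham) and 58 and 54 UMIs (overload), while Tek, the most abundant in sham, was lower (log2 fold change -1.41, edgeR adjusted p = 0.015). In a pooled tube, fewer cells of a type and less RNA per cell cannot be told apart.

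The bases before the start sites were searched for 2 motifs, and 4 of these sequences are shown because they belong to 2 enzymes with opposite changes between sham and overload (Pgk1 and Pfkp) and to the enzymes that open and close the pathway (Hk2 and Ldha). The motif searched was ACGTG on both strands, the core of the elements through which the hypoxia-inducible factors bind DNA, together with CACGTG, the palindromic E-box, which holds ACGTG once on each strand. Each sequence is the 250 bases before a RefSeq transcription start on GRCm38.p6, 5′ to 3′ on the strand of the gene, with ACGTG or its reverse complement in capitals.
Ldha, chr7:46845554-46845803, plus strand: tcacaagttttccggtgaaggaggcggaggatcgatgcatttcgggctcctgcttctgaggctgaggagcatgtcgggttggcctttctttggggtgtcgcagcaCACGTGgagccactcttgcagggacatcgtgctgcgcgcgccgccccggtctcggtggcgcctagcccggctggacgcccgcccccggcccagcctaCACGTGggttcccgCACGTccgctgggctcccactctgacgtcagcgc
Pgk1, chrX:106186850-106187099, plus strand: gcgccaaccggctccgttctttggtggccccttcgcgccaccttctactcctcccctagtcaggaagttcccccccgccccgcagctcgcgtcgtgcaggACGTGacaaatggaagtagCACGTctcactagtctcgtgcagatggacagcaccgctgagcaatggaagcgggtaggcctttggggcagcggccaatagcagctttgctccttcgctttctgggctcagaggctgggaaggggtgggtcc
Hk2, chr6:82774455-82774704, minus strand: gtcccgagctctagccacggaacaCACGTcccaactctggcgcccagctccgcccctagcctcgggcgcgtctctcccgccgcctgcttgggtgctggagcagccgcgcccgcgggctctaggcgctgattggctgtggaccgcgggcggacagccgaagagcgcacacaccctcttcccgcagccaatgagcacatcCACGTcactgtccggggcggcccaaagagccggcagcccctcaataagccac
Pfkp, chr13:6648772-6649021, minus strand: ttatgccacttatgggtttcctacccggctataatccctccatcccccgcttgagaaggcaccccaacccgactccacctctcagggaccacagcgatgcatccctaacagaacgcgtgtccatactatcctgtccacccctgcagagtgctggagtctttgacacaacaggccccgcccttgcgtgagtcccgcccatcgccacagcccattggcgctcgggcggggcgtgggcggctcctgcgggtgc
The Ldha window shown holds ACGTG 5 times counted over both strands, and 2 copies of CACGTG account for 4 of these, while the window of the other Ldha start (chr7:46846832-46847081) holds neither motif. The Pgk1 and Hk2 windows hold it 2 times each, and these letters are not in the Pfkp window. Over all starts of the 10 genes, ACGTG was in 6 of 17 windows (35.3%), those of Hk2, Aldoa, Pgk1, Pkm and Ldha, against 16.6% of 32851 windows of all genes. Among the 6 are overlapping windows of 2 Aldoa starts (chr7:126799179-126799428 and chr7:126799255-126799504). They hold the same match, which was thus counted 2 times. CACGTG was in 1 of the 17 windows (5.88%), against 6.02% of all windows. These matches are a description of the sequence, and binding was not measured.

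The comparison asked how the RNA of each enzyme differed between MuSCs of overloaded and sham muscle. Of the 10 enzymes, 4 were higher after overload (Gapdh, Pgk1, Eno1 and Pkm), 2 were lower (Hk2 and Pfkp), and 4 (Hk1, Pfkl, Aldoa and Ldha) did not pass the threshold, a Benjamini-Hochberg adjusted p of 0.1 over 7228 genes in the quasi-likelihood test of edgeR. Among all genes tested, 25.8% were higher and 26.3% lower, and the counts of 4 and 2 among the 10 enzymes are to be read against these shares. The enzymes of the 10 that were higher lie in the lower, ATP-yielding part of the pathway, but Gapdh and Pkm did not pass with DESeq2. Those that were lower are the isoforms of hexokinase and phosphofructokinase with most UMIs in sham. Gpi1, which acts between these 2 steps and is not among the 10, was higher (log2 fold change 0.76, edgeR adjusted p = 0.0045), so the upper part did not fall as a whole. The median log2 fold change of the 10 enzymes was 0.22, with a range from -1.15 to 1.85, beside a median of 0.05 over all genes tested. Together the 10 enzymes made up 2542 and 2025 CPM in the sham libraries and 2569 and 2400 CPM in the overload libraries. The ratio of the means was 1.09, and these sums overlapped between the groups. They take Gapdh by its own row and leave out its near-identical copies, described below. With the copies, Gapdh was at 139 and 181 CPM in sham and 348 and 423 CPM after overload. The overlap of the sums thus depends on how these reads were assigned. Gapdh and Eno1 passed the filter on low counts through the overload libraries, since both had fewer than 10 UMIs in each sham library. With 2 libraries per group, the smallest p of an exact two-sided permutation test is 0.333, and the adjusted p-values borrow the spread of other genes.

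**Figure D1:**
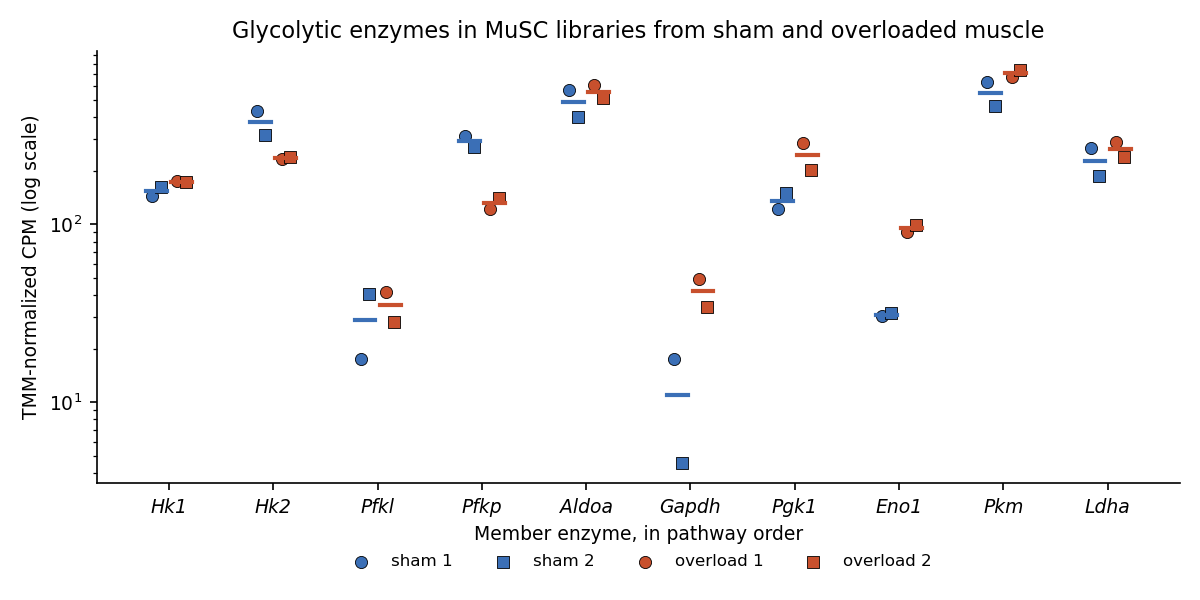
TMM-normalized CPM on a log scale for the 10 enzymes in pathway order, with a circle for replicate 1, a square for replicate 2 and a bar at the mean of each group. Hk2 and Pfkp sit lower in both overload libraries than in both sham libraries, Hk1, Gapdh, Pgk1, Eno1 and Pkm sit higher, and Pfkl, Aldoa and Ldha overlap.

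In UMIs, 8 of the 10 enzymes were higher in both overload libraries than in both sham libraries and 0 were lower, where 72.7% and 7.9% of all tested genes had groups apart in this way. In CPM, 5 of the 10 enzymes were higher in both overload libraries than in both sham libraries and 2 were lower, where 37.5% and 35.4% of all tested genes had such groups. In sham the order of levels ran Pkm, Aldoa, Hk2, Pfkp, Ldha, Hk1, Pgk1, Eno1, Pfkl and Gapdh, the last by its own row, which leaves out the near-identical copies described below, and equal to Pfkl in sham replicate 1 (17.4 CPM each). The libraries of Pkm (544 ± 116 CPM, SD, n = 2) overlapped with those of Aldoa (484 ± 121), as did Aldoa with Hk2, Hk1 with Pgk1 and Eno1 with Pfkl. Hk2, Pfkp and Ldha were apart by less than the spread within any of them, as were Ldha and Hk1 by less than the spread of Ldha, whereas both libraries of Pgk1 lay above both of Eno1 by more than the spread of either. After overload the order was Pkm, Aldoa, Ldha, Pgk1, Hk2, Hk1, Pfkp, Eno1, Gapdh and Pfkl. Pgk1 overlapped there with Ldha and with Hk2, and Gapdh with Pfkl, while the other neighbours were apart. Pfkp thus went from the fourth place to the seventh, and Pgk1 from the seventh to the fourth.

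Hexokinase traps glucose in the cell as glucose 6-phosphate, and Hk2 is the insulin-responsive isoform of muscle and many growing cells. Hk2 (chr6:82725025-82774454, minus strand, GRCm38) was represented by 99 and 70 UMIs (sham) and by 90 and 118 UMIs (overload). Its UMIs overlapped between the groups, but relative to the larger overload libraries it was at 431 and 317 CPM in sham and 234 and 239 CPM after overload. This was a fall from 374 ± 80.5 to 236 ± 3.50 CPM (SD, n = 2), a log2 fold change of -0.66 (SE 0.19, edgeR adjusted p = 0.0082). The fall of Hk2 rested on sham replicate 1 and on the scaling, since it was -0.46 (adjusted p = 0.19) without that library, -0.21 (adjusted p = 0.37) with offsets that level each library against mean abundance, and 0.30 (adjusted p = 0.30) per tube.

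Hk1, the housekeeping isoform bound to the outer mitochondrial membrane, was counted 33, 36, 67 and 85 times in sham replicates 1 and 2 and overload replicates 1 and 2. It was at 144 and 163 CPM in sham and 174 and 172 CPM after overload, with no overlap, but the log2 fold change of 0.18 (SE 0.22, edgeR adjusted p = 0.53) did not pass the threshold. It passed with library sizes alone (0.45, edgeR adjusted p = 0.094) and per tube (1.14, edgeR adjusted p = 0.0042). Hk1 (chr10:62268855-62379908, minus strand) shares exon positions with Hk1os on the other strand, and the strand setting of the counting was not given in the sources used here. Hk3 and Hkdc1, the remaining hexokinases listed, had at most 2 UMIs in any library. Scaling by 1 factor per library does not change the share of Hk2 among Hk1 and Hk2 molecules. The offsets vary with abundance and do move these genes unequally. Under them the log2 fold change was -0.21 for Hk2 and 0.26 for Hk1, against -0.66 and 0.18 with TMM. In UMIs the share of Hk2 was 75.0% and 66.0% in the sham libraries and 57.3% and 58.1% in the overload libraries. Summed over libraries it went from 71.0% (exact Clopper-Pearson 95% interval 64.8 to 76.7) to 57.8% (52.5 to 62.9), with an odds ratio of 0.56 (0.39 to 0.80, two-sided Fisher's exact test, adjusted p = 0.0017 over 5 shares). These intervals and tests cover counting error only. Without sham replicate 1 the difference in share was -8.26 percentage points and did not pass the threshold (Fisher's exact test, adjusted p = 0.24). The 4 hexokinases summed to 527 ± 67.2 CPM in sham and 414 ± 1.19 CPM after overload (SD, n = 2). Under the offsets the summed row was at 0.36 (edgeR adjusted p = 0.068), above both Hk1 (0.26) and Hk2 (-0.21). A sum takes the offset of its own, higher abundance, so this value is not a rise of its genes. With TMM the sum had a log2 fold change of -0.35 (edgeR adjusted p = 0.097), which turned to a rise past the threshold for UMIs per tube (0.61, adjusted p = 0.013). The call was lost with library sizes alone (adjusted p = 0.73) and without sham replicate 1 (adjusted p = 0.51), sham replicate 2 (adjusted p = 0.13) or overload replicate 2 (adjusted p = 0.13).

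Phosphofructokinase catalyses the committed step of glycolysis, and its 3 genes encode the platelet (Pfkp), liver (Pfkl) and muscle (Pfkm) subunits of the tetramer. Pfkp (chr13:6579768-6648777, minus strand) was represented by 72 and 60 UMIs (sham) and by 47 and 69 UMIs (overload). In CPM it was at 313 and 272 in sham and 122 and 140 after overload, which separated the groups by more than the spread within either. Pfkp showed the largest fall of the 10 enzymes, from 293 ± 29.4 to 131 ± 12.4 CPM (SD, n = 2), a log2 fold change of -1.15 (SE 0.20, edgeR adjusted p = 2.05e-04). Leaving out any 1 library kept the fall of Pfkp past the threshold, at -1.29 to -1.04. Per tube it was -0.19 (adjusted p = 0.59), so the fall is one relative to the other transcripts of the library. The last 500 bases of the Pfkp transcript also lie in a transcript of Pitrm1 on the other strand, whose own row held 3, 8, 11 and 5 UMIs.

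Pfkl was scarce, with 4 and 9 UMIs (sham) and 16 and 14 UMIs (overload). Its CPM overlapped between the groups (17.4 and 40.8 against 41.6 and 28.4), and a log2 fold change of 0.24 (SE 0.48, 95% interval -0.76 to 1.25, edgeR adjusted p = 0.71) leaves its direction undetermined at this depth. That value was -0.21 under the offsets and -0.28 without sham replicate 1, but 0.93 without sham replicate 2. Per tube it was 1.19 and past the threshold (edgeR adjusted p = 0.0497). Pfkm (chr15) was represented by 6 and 6 UMIs (sham) and by 12 and 30 UMIs (overload), with a log2 fold change of 0.82 (SE 0.48, edgeR adjusted p = 0.17) that did not pass the threshold. It passed with library sizes alone (1.10, adjusted p = 0.060), per tube (1.79, adjusted p = 0.0091) and without overload replicate 1 (1.20, adjusted p = 0.086). As a share of all phosphofructokinase molecules, Pfkp was 87.8% and 80% in the sham libraries and 62.7% and 61.1% in the overload libraries. The summed share fell from 84.1% to 61.7% (odds ratio 0.31, Fisher's exact test, adjusted p = 2.03e-05), and it fell by 18.3 to 26.1 percentage points whichever library was left out. The share of Pfkm rose from 7.64% to 22.3% (odds ratio 3.46, Fisher's exact test, adjusted p = 4.24e-04), with 7.32% and 8% in the sham libraries and 16.0% and 26.5% in the overload libraries. The share of Pfkl was 8.28% in sham and 16.0% after overload (Fisher's exact test, adjusted p = 0.043), with 4.88% and 12% in the sham libraries and 21.3% and 12.4% in the overload libraries, so that sham replicate 2 and overload replicate 2 nearly met. Leaving out sham replicate 1 (adjusted p = 0.56) or overload replicate 1 (adjusted p = 0.38) ended that call. Pfkm shares exon positions with Gm26513 on the same strand and with Senp1 on the other strand. Myofibres, whose markers rose in the same libraries, express Pfkm, and the part of their RNA in the share of Pfkm was not tested. The 3 genes summed fell from 348 ± 12.5 to 212 ± 23.9 CPM (SD, n = 2), a log2 fold change of -0.71 (SE 0.18, edgeR adjusted p = 0.0043). It was 0.26 (adjusted p = 0.38) per tube. Under the offsets the summed row, which took the offset of its own abundance, was at -0.32 (adjusted p = 0.17). There Pfkp, most of the sum, was at -0.96, Pfkl at -0.21 and Pfkm at 0.51, so the lost call of the sum is not one of its genes.

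**Figure D2:**
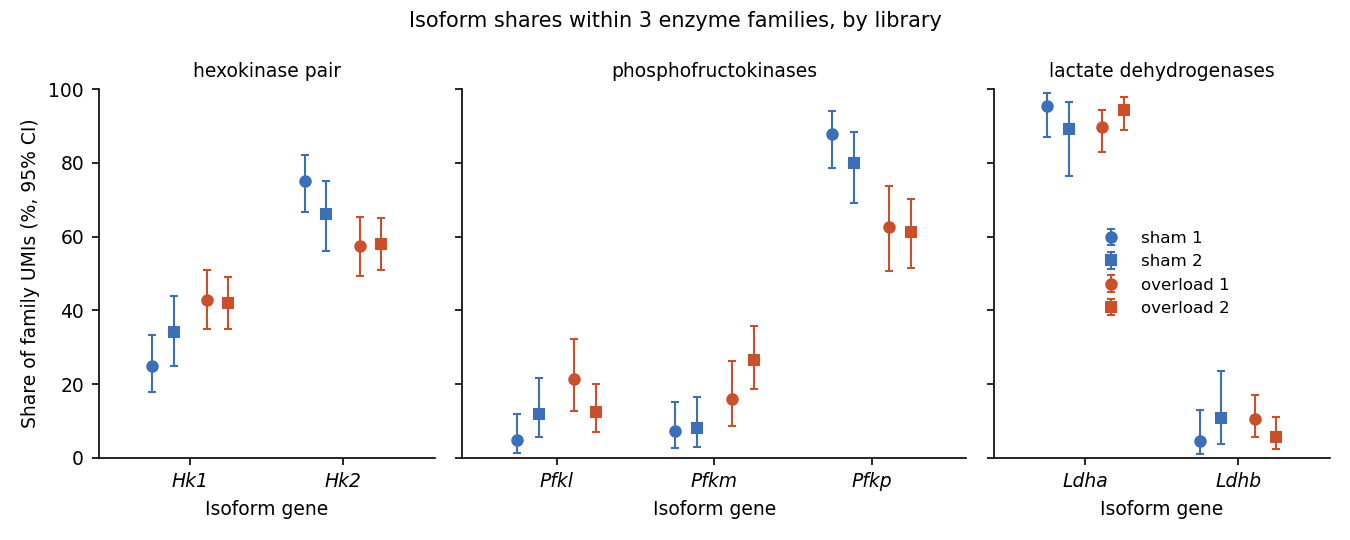
Share of each isoform among the UMIs of its enzyme family in each library, in percent, with exact 95% intervals that cover counting error only. The share of Hk2 is lower in both overload libraries (57.3% and 58.1%) than in both sham libraries, the share of Pfkp is lower and that of Pfkm higher, and Ldha stays at 89.1% to 95.4% in every library.

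Aldolase splits fructose 1,6-bisphosphate into 2 triose phosphates, and Aldoa is its muscle and general isoform. Aldoa (chr7:126795234-126800751, minus strand, with exon positions shared with Fam57b on the other strand) was the second most abundant enzyme, with 131 and 88 UMIs (sham) and 232 and 253 UMIs (overload). Sham replicate 1 (570 CPM) lay within the range of the overload libraries (603 and 512 CPM) and sham replicate 2 (399 CPM) below it. Levels of 484 ± 121 and 558 ± 64.3 CPM (SD, n = 2) gave a log2 fold change of 0.20 (SE 0.18, 95% interval -0.19 to 0.58, edgeR adjusted p = 0.41). The call depended on the setting. Aldoa was called higher with the offsets (0.96, adjusted p = 9.8e-05), with library sizes alone (0.47, adjusted p = 0.028), per tube (1.15) and without overload replicate 2 (0.36, adjusted p = 0.055), and it was at -0.07 without sham replicate 2. Aldoc, the brain isoform, had 1 UMI in all 4 libraries together. Triosephosphate isomerase, which turns one triose phosphate into the other, is not among the 10 enzymes; its gene Tpi1 was counted 21, 15, 76 and 91 times and rose by 1.25 on the log2 scale (SE 0.25, edgeR adjusted p = 7.53e-04).

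Gapdh encodes the enzyme that oxidizes glyceraldehyde 3-phosphate and is widely used as a reference gene in expression assays. Its row (chr6:125161715-125166467, minus strand) held only 4 and 1 UMIs (sham) and 19 and 17 UMIs (overload). In CPM this was 17.4 and 4.53 against 49.4 and 34.4. The log2 fold change of 1.85 (SE 0.58, edgeR adjusted p = 0.015) rested on sham replicate 2, without which it was 1.19 (adjusted p = 0.22) and which held 1 UMI; without sham replicate 1 it was 3.06 (adjusted p = 0.018), and it did not pass with DESeq2 (adjusted p = 0.17). The last 500 bases of the Gapdh transcript match transcripts of 84 other genes at 95% identity or more over at least 300 bases, 82 of them pseudogenes. Of these, 34 were in the table and held 28, 39, 115 and 192 UMIs in sham replicates 1 and 2 and overload replicates 1 and 2, more than Gapdh itself. The pseudogene Gm7336, 99.6% identical over 502 bases, was counted most, with 16 and 32 UMIs (sham) and 68 and 80 UMIs (overload). How reads that match several genes were assigned was not given in the sources used here, so the rows of Gapdh and its copies cannot be told apart. Summed, these rows held 32 and 40 UMIs (sham) and 134 and 209 UMIs (overload). The sum rose from 160 ± 29.5 to 386 ± 52.9 CPM (SD, n = 2), a log2 fold change of 1.28 (SE 0.21, edgeR adjusted p = 1.11e-04), and stayed past the threshold whichever library was left out (1.06 to 1.44).

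Phosphoglycerate kinase regains the first ATP of the pathway. Pgk1 (chrX:106187100-106203699, plus strand) was represented by 28 and 33 UMIs (sham) and by 110 and 100 UMIs (overload). Both overload libraries (286 and 203 CPM) lay above both sham libraries (122 and 149 CPM). Pgk1 rose from 136 ± 19.5 to 244 ± 59.0 CPM (SD, n = 2), a log2 fold change of 0.83 (SE 0.24, edgeR adjusted p = 0.0087). It stayed past the threshold without any 1 library (0.60 to 1.12) and under each scaling tried, although the overload libraries differed more from each other than those of Eno1 did. Phosphoglycerate mutase moves the phosphate for the next step. Its general isoform Pgam1 was counted 15, 12, 53 and 61 times, a log2 fold change of 1.11 (SE 0.29, edgeR adjusted p = 0.0053). The muscle isoform Pgam2 was represented by 7 and 0 UMIs (sham) and by 12 and 24 UMIs (overload), and its adjusted p of 0.094 became 0.107 with the replicate number as a block, 0.68 with DESeq2 and 0.69 without sham replicate 2.

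Enolase forms phosphoenolpyruvate, and Eno1 is the isoform found in most cells. Eno1 (chr4:150236721-150248879, plus strand) was represented by 7 and 7 UMIs (sham) and by 35 and 49 UMIs (overload). The libraries of each group were close to each other, at 30.5 and 31.7 CPM in sham and 91.0 and 99.2 CPM after overload. This rise from 31.1 ± 0.877 to 95.1 ± 5.82 CPM (SD, n = 2) was a log2 fold change of 1.61 (SE 0.37, edgeR adjusted p = 0.0023), and it was 1.55 to 1.68 whichever library was left out. The copy Eno1b matches the end of the Eno1 transcript at 99.4% over 497 bases and held 1, 0, 8 and 6 UMIs; with it, the log2 fold change was 1.73 (SE 0.35, edgeR adjusted p = 8.45e-04). Eno3, the enolase of muscle fibres, was more abundant than Eno1 in sham replicate 1 and after overload, with 24 and 7 UMIs (sham) and 105 and 129 UMIs (overload). It rose from 68.1 ± 51.4 to 267 ± 8.33 CPM (SD, n = 2), a log2 fold change of 1.95 (SE 0.30, edgeR adjusted p = 7.65e-05) that was 1.31 without sham replicate 2 and 3.03 without sham replicate 1. Sham replicate 1, at 104 CPM of Eno3 against 31.7 in replicate 2, was also the sham library with the higher sum of myofibre markers, and their part in the rise of Eno3 was not tested. Eno2, the enolase of neurons, had 1 to 3 UMIs in every library.

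Pyruvate kinase gives the second ATP of the pathway, and Pkm, spliced into the forms known as M1 and M2, was the most abundant of the 10 enzymes in each group. The counts do not tell the splice forms apart. Pkm (chr9:59656368-59679375, plus strand) was represented by 144 and 102 UMIs (sham) and by 260 and 362 UMIs (overload). In CPM both overload libraries (676 and 733) lay above both sham libraries (627 and 462). The difference of 544 ± 116 against 705 ± 40.3 CPM (SD, n = 2) was a log2 fold change of 0.37 (SE 0.17, edgeR adjusted p = 0.091), just within the threshold. It did not pass with DESeq2 (adjusted p = 0.25), without sham replicate 1 (0.58, adjusted p = 0.11) or without sham replicate 2 (0.13, adjusted p = 0.75). It was larger with library sizes alone (0.65, adjusted p = 0.0026), under the offsets (1.24, adjusted p = 7.44e-06) and per tube (1.34, adjusted p = 4.89e-05). The annotated gene Gm49759 shares exon positions with Pkm on the same strand.

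Ldha encodes the A subunit of lactate dehydrogenase, which favours the making of lactate from pyruvate. Ldha (chr7:46841475-46855627, plus strand) was represented by 62 and 41 UMIs (sham) and by 112 and 118 UMIs (overload). Sham replicate 1 (270 CPM) lay between the overload libraries (291 and 239 CPM), and sham replicate 2 was at 186 CPM. Levels of 228 ± 59.5 and 265 ± 36.9 CPM (SD, n = 2) gave a log2 fold change of 0.20 (SE 0.21, 95% interval -0.23 to 0.64, edgeR adjusted p = 0.45). Ldha was called higher with the offsets (0.53, adjusted p = 0.040), with library sizes alone (adjusted p = 0.053) and per tube (adjusted p = 0.0013), and was at -0.07 without sham replicate 2. Ldhb, the subunit that favours the use of lactate, had 3 and 5 UMIs (sham) and 13 and 7 UMIs (overload) and was too low to be tested. Ldha made up 92.8% of both subunits in sham and 92.0% after overload, an odds ratio of 0.89 (95% interval 0.33 to 2.20, Fisher's exact test, adjusted p = 1), which leaves room for a difference in either direction. Hk2, Pfkp, Aldoa, Gapdh, Pkm and Ldha were each higher in CPM in sham replicate 1 than in sham replicate 2, as was the sum of the myofibre markers. Hk1, Pfkl, Pgk1 and Eno1 went the other way. Hk2 and Pfkp were lower after overload, where those markers were higher. The part of the RNA behind those markers in the levels of these enzymes was not tested.

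The other glycolytic genes were taken from a list of 18, of which 13 were in the table and 7 had enough counts to be tested. Of these 7, 5 were higher (Gpi1, Tpi1, Pgam1, Pgam2 and Eno3), 0 were lower, and Pfkm and Adpgk did not pass, beside 25.8% higher and 26.3% lower among all genes. The call of Pgam2, lost under several settings above, was also lost under the offsets (0.90, adjusted p = 0.29). Pfkm, Pgam2, Adpgk and Eno3 passed the filter on low counts only with the overload libraries, since a sham library of each fell below its cutoff. Gpi1, which makes fructose 6-phosphate between the hexokinase and phosphofructokinase steps, was represented by 36 and 41 UMIs (sham) and by 110 and 145 UMIs (overload), a log2 fold change of 0.76 (SE 0.20, edgeR adjusted p = 0.0045) that missed the threshold without sham replicate 1 (0.61, adjusted p = 0.11). Adpgk, a kinase of glucose that uses ADP, was counted 6, 9, 18 and 25 times (log2 fold change 0.55, edgeR adjusted p = 0.30). The 13 genes together went from 488 ± 55.3 to 1045 ± 0.22 CPM (SD, n = 2), a ratio of 2.14. That sum holds the muscle isoforms Eno3 (68.1 and 267 CPM), Pgam2 and Pfkm, and the sum of the myofibre markers had a ratio of 2.31 in the same libraries; the part of the RNA behind those markers was not tested.

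The direction of several of these changes depended on what the counts were set against, and the overload tubes held more UMIs. The median log2 fold change over all genes tested was 0.05 with TMM, 0.33 with library sizes alone, 0.02 under the offsets and 1.01 for UMIs per tube. The median of the 10 enzymes was 0.22, 0.50, 0.75 and 1.17 under the same 4 scalings, above the median of all genes in each. Gapdh, Pgk1, Eno1 and Pkm were higher past the threshold under all 4. Hk2 and Pfkp lay below the median of all genes under all 4, but per tube the log2 fold change of Hk2 was 0.30 and that of Pfkp -0.19, neither past the threshold. In UMIs per tube of 100 sorted cells, 8 of the 10 enzymes were higher and 0 lower, beside 4481 higher and 331 lower genes in all. How far RNA capture and read depth differed between the tubes was not given in the sources used here. UMIs per tube are therefore not a measure of RNA per cell.

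**Figure D3:**
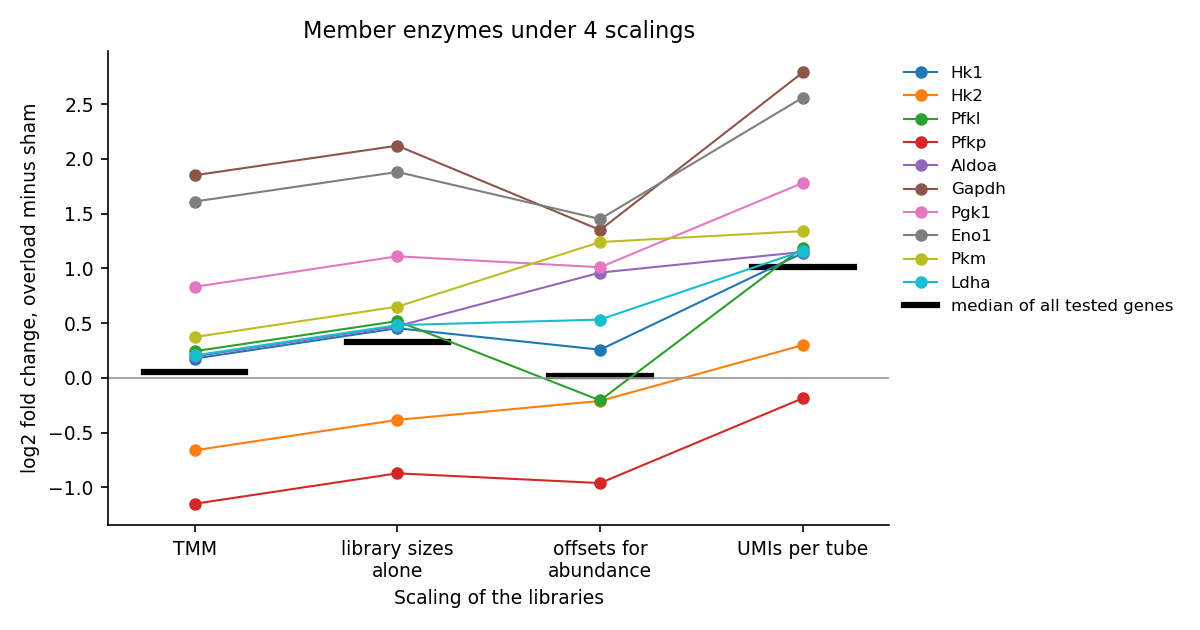
Log2 fold change (overload minus sham) of each of the 10 enzymes under 4 scalings of the libraries, with a black bar at the median of all 7228 tested genes. Pfkp is the lowest enzyme under all 4 scalings, Hk2 crosses 0 for UMIs per tube, and Pfkl crosses 0 under the offsets.

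Glucose enters through the transporters Slc2a1 and Slc2a3 (GLUT1 and GLUT3), and lactate leaves through the monocarboxylate transporters. Of 15 genes of supply and control, 8 were tested, of which 4 were lower and 2 higher, beside 26.3% and 25.8% of all genes, with a median log2 fold change of -0.46. Slc16a3, the lactate exporter MCT4, was represented by 39 and 23 UMIs (sham) and by 12 and 10 UMIs (overload), a log2 fold change of -2.43 (SE 0.38, edgeR adjusted p = 7.21e-05). Slc2a1 was counted 24, 29, 24 and 22 times (-1.16, edgeR adjusted p = 0.0076) and Slc2a3 19, 22, 13 and 26 times (-1.04, edgeR adjusted p = 0.023). Per tube Slc16a3 was still lower (-1.48, adjusted p = 0.0080), whereas Slc2a1 (-0.20, adjusted p = 0.65) and Slc2a3 (-0.07, adjusted p = 0.89) were not past the threshold. The remaining fall was of Slc16a1, the transporter MCT1, at -0.54 (edgeR adjusted p = 0.043), which turned to 0.40 per tube. Txnip, an inhibitor of glucose uptake, was counted 39, 27, 91 and 112 times and rose by 0.66 (edgeR adjusted p = 0.020), and Bsg, the chaperone of the lactate transporters, rose by 0.52 (edgeR adjusted p = 0.031). These smaller changes each lost their call when a library was left out, Txnip without sham replicate 2 (0.41, adjusted p = 0.31), Bsg without sham replicate 1 (0.44, adjusted p = 0.25), Slc16a1 without overload replicate 2 (-0.21, adjusted p = 0.47) and Slc2a3 without overload replicate 1 (-0.76, adjusted p = 0.13). Neither Hif1a (0.28, edgeR adjusted p = 0.27), a subunit of the hypoxia-inducible factor, nor Pfkfb3 (-0.38, edgeR adjusted p = 0.48), whose product activates phosphofructokinase, passed the threshold.

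Pyruvate enters the mitochondria and the tricarboxylic acid cycle through pyruvate dehydrogenase, which the kinases of the Pdk family switch off. Of 8 tested genes at this step, Dlat, Pdhb and Pdk3 were higher and Pdk4 was lower, beside 25.8% higher and 26.3% lower among all genes. Pdk4 was represented by 115 and 113 UMIs (sham) and by 69 and 110 UMIs (overload), a fall of 1.32 on the log2 scale (SE 0.18, edgeR adjusted p = 1.83e-05) that was -0.35 (adjusted p = 0.21) per tube. Dlat, a core subunit of the complex, was counted 12, 14, 57 and 72 times and rose by 1.34 (edgeR adjusted p = 0.0011), and Pdhb rose by 0.46 (edgeR adjusted p = 0.084), a call lost without sham replicate 2 (0.25, adjusted p = 0.54). Pdk3 was counted 1, 0, 14 and 17 times and passed the filter on low counts through the overload libraries. Of 14 tested genes of the cycle, 11 were higher and 0 lower, beside 25.8% and 26.3% of all genes, with a median log2 fold change of 1.06. Sdhd (6, 6, 23 and 28 UMIs) and Fh1 (13, 3, 36 and 42 UMIs), both among the 11, passed the filter only with the overload libraries. The myofibre markers were higher in the same libraries (7 of 7 tested, median log2 fold change 1.12), and their part in these counts was not tested. Sdhb, a subunit of succinate dehydrogenase, went from 14 and 11 to 68 and 64 UMIs (1.44, edgeR adjusted p = 0.0011), and Suclg1, a subunit of succinyl-CoA ligase, from 21 and 15 to 83 and 100 UMIs (1.38, edgeR adjusted p = 2.71e-04). Fumarase (Fh1) rose by 1.32 (0.61 and not past the threshold without sham replicate 2, edgeR adjusted p = 0.29) and the isocitrate dehydrogenase subunit Idh3a by 1.20.

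The branches that leave glycolysis were tested in the same way. Of 5 tested genes of the pentose phosphate pathway, Taldo1 (22, 27, 81 and 108 UMIs, log2 fold change 0.98, edgeR adjusted p = 0.0022), G6pdx (6, 2, 31 and 39 UMIs) and Pgd (2, 2, 24 and 27 UMIs) were higher and 0 were lower, beside 25.8% and 26.3% of all genes. G6pdx and Pgd had fewer than 10 UMIs in each sham library and passed the filter through the overload libraries, whereas Tkt (6, 7, 5 and 7 UMIs, named after its values were seen) was lower in CPM in both overload libraries but too low to be tested, so the filter bears on this count. G6pdx encodes the entry enzyme of that branch, which takes the glucose 6-phosphate made by hexokinase. Serine is made from 3-phosphoglycerate, the product of phosphoglycerate kinase. Of 5 listed genes of that branch, 3 were tested, of which 2 were higher, 0 were lower and 1 did not pass, beside 25.8% higher and 26.3% lower among all genes. Psat1, the transaminase of that branch, was represented by 18 and 13 UMIs (sham) and by 125 and 177 UMIs (overload), a log2 fold change of 2.31 (SE 0.24, edgeR adjusted p = 1.10e-06), and Shmt2 rose by 1.41 (edgeR adjusted p = 8.01e-04). Phgdh, the first enzyme of the branch, had 0 UMIs in 3 libraries and 2 in overload replicate 2.

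**Figure D4:**
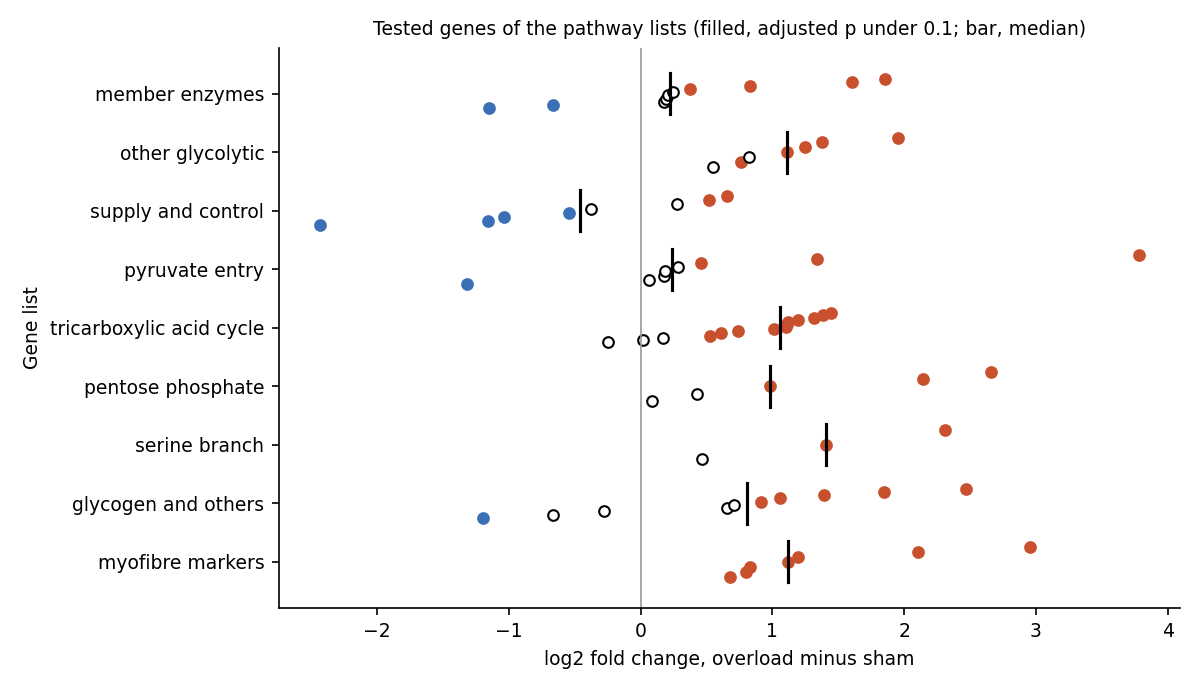
Log2 fold change (overload minus sham) of every tested gene of each list, with filled points for an adjusted p under 0.1 (red higher, blue lower) and a bar at the median of the list. The 10 enzymes spread to both sides of 0, the supply and control genes have a median of -0.46, and the tricarboxylic acid cycle and the myofibre markers have medians of 1.06 and 1.12.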

How the data were processed

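The authors extracted barcodes and UMIs with UMI-tools (version 1.0.0), aligned reads to GRCm38 with HISAT2 (version 2.1.0), assigned them to genes with featureCounts (version 1.6.4) and deposited the UMI counts per gene without normalization. Their gene annotation, strand setting and handling of reads that match several genes are not given in the sources used here. All 19353 identifiers matched GENCODE mouse release 21, and 19331 had the same name.

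Counts were scaled by TMM and filtered by filterByExpr (minimum count 10, minimum total 15), and 7228 genes were tested with glmQLFit and glmQLFTest of edgeR (version 4.0.16, R version 4.3.3), with Benjamini-Hochberg adjustment and the threshold of 0.1 used in the study. The study used DESeq2 (version 1.22.2), and DESeq2 (version 1.42.0) was run here as an alternative. The common biological coefficient of variation was 9.50%, and 3732 genes had an unadjusted p under 0.05. The prior count behind log2 fold changes was 0.125. Chi-square per degree of freedom was 1.31 between the sham libraries, 1.50 between the overload libraries and 6.34 to 7.86 between groups. The counts of no library were thus a copy of another's, but these values do not show whether libraries of a group share an animal or a pool of cells. "Per tube" means UMIs without scaling, that is per tube of 100 sorted cells, with no correction for the capture or read depth of the tube. Offsets for abundance are loess curves (span 0.3) of each library against mean abundance. Near-identical transcripts were found with blastn (version 2.17.0), and promoters came from RefSeq (GRCm38.p6), in which all 10 enzymes had a window. Tables and plots used Python (version 3.11.15), pandas (version 2.3.3), numpy (version 2.4.6) and matplotlib (version 3.10.9).

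Simulated counts drawn from the means and sizes of these libraries served to check the test. Of 6973 genes that passed the filter, 129 had been changed; 53.2% of those changed 2-fold and 91.0% of those changed 4-fold were found, 0 in the wrong direction, and 7 unchanged genes were called.

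The enzymes and all lists were chosen with earlier results of these data known. Named were all 10 enzymes, the other glycolytic genes that could be tested and 5 isoforms, up to 4 genes of each neighbouring list with the largest change past the threshold (a mean of at least 20 UMIs and no overlap in CPM), and of each marker list the most abundant gene and those at 0. Genes that account for a small count (Bsg, Slc16a1, Pdk3, G6pdx and Pgd), Sdhd, Hif1a, Pfkfb3, Phgdh, Tek and the remaining genes of an enzyme family or a copy were named after their values were seen. Alternatives were the scalings, DESeq2, no filter, a threshold of 0.05, a replicate block, corrections for UMIs drawn more than once and for saturation (at 2000 counts, where the highest count was 1102), and each library left out. Sums over isoforms and copies were added after seeing the data. Some genes of the lists are not reported here by name.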

Additional observations from a re-analysis of the deposited data

How the results depend on the processing

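Of the 10 enzymes, the number higher was 4 with TMM, 7 with library sizes alone, 6 under the offsets for abundance, 8 for UMIs per tube and 2 with DESeq2, and the number lower was 2, and 0 per tube and 1 under those offsets. Leaving out 1 library at a time (Gapdh and Pfkl had too few counts to be tested without overload replicate 1, so their values cover the other 3 libraries) gave 2 to 5 higher and 1 to 2 lower. The median log2 fold change of the 10 enzymes was 0.50 with library sizes alone, 1.17 per tube and 0.75 under the offsets, and 0.15 to 0.46 with 1 library left out. With 1 library left out, log2 fold changes spanned -0.279 to 0.928 for Pfkl, -0.0745 to 0.447 for Aldoa and -0.0734 to 0.47 for Ldha. Directions turned for Hk2 per tube (0.30), Pfkl under the offsets (-0.21) and without sham replicate 1 (-0.28), Aldoa and Ldha without sham replicate 2 (-0.0745 and -0.0734) and Slc16a1 per tube (0.40). The totals turned for hexokinase (0.61 per tube), phosphofructokinase (0.26 per tube), aldolase (-0.0739 to 0.43 with 1 library left out) and lactate dehydrogenase (-0.0175 to 0.43), both without sham replicate 2. Totals under the offsets (0.36 for hexokinase) took the offset of the summed row, not those of its genes, and are not read as turns. Over all genes, 2694 were higher and 1351 lower with library sizes alone, 1736 and 1702 under the offsets, 4481 were higher and 331 lower per tube, and 967 and 1215 with DESeq2. The neighbouring lists had 40 genes higher and 1 lower per tube and 16 higher with DESeq2, and 19 to 24 higher and 5 to 6 lower with 1 library left out, and the other glycolytic genes had 4 to 6 higher. Isoform shares differed by -17.2 to -8.26 percentage points for Hk2, -26.1 to -18.3 for Pfkp, 8.36 to 18.9 for Pfkm, 3.96 to 13.1 for Pfkl and -3.38 to 2.87 for Ldha with 1 library left out. The cause of these changes was not tested.

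The labels number the libraries 1 and 2 in both groups, but the deviations of same-numbered libraries had a correlation of -0.03, so the numbers were not taken as pairs. With the replicate number as a block, 4 enzymes were higher and 2 lower, as without it, and 1806 and 1864 genes in all. Pgam2 (adjusted p = 0.107) was the only gene whose call the block changed among the 10 enzymes and the called pathway genes; calls of the cell type markers were not compared. With 269683 to 483528 UMIs per library, Pfkl, Gapdh and Ldhb rest on so few molecules that changes as small as those of Aldoa or Hk1 could not be detected in them.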

Other observations

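Genes of glycogen handling, gluconeogenesis and the glycerol phosphate shuttle, which share intermediates with glycolysis, were read in the same way as 1 list. Of 17 listed, 15 were in the table and 10 could be tested, of which 5 were higher after overload, 1 was lower and 4 did not pass (median log2 fold change 0.81), beside 25.8% higher and 26.3% lower among all genes tested. The myofibre markers rose in the same libraries (7 of 7 tested), and their part in these counts was not tested. Pgm1, a phosphoglucomutase that links glucose 1-phosphate to glucose 6-phosphate, was represented by 6 and 1 UMIs (sham) and by 33 and 44 UMIs (overload), a log2 fold change of 2.47 (SE 0.50, edgeR adjusted p = 7.59e-04) that was 1.69 without sham replicate 2 and 4.14 without sham replicate 1. Pgm1 and Gys1 had fewer than 10 UMIs in each sham library, so they passed the filter on low counts through the libraries in which they were high. Pgm2 went the other way, with 24 and 22 UMIs (sham) and 17 and 22 UMIs (overload), a log2 fold change of -1.20 (SE 0.32, edgeR adjusted p = 0.0065) that was -0.24 (adjusted p = 0.62) for UMIs per tube. Gpd2, the mitochondrial glycerol phosphate dehydrogenase, rose by 1.06 (edgeR adjusted p = 0.023; 0.74 and not past the threshold without sham replicate 1, adjusted p = 0.20). Glycogen synthase (Gys1) went from 3 and 3 to 19 and 24 UMIs and muscle glycogen phosphorylase (Pygm) from 19 and 24 to 61 and 98 UMIs, both past the threshold and both named after their values were seen.

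Hbb-bs, a haemoglobin chain and the most abundant erythrocyte marker, was represented by 82 and 3 UMIs (sham) and by 14 and 104 UMIs (overload), so that red cell RNA varied between libraries of both groups. The fibroblast markers summed to 3725 ± 162 CPM in sham and 3792 ± 425 CPM after overload (SD, n = 2), with Col3a1 the most abundant and Pdgfra at 0 in sham. Within that sum Col1a2 (1.84) and Ly6a (1, 0, 22 and 41 UMIs, tested through its overload counts) were higher and Col3a1 (-0.53) and Dcn (-0.38) lower on the log2 scale, each past the threshold. The mural cell markers summed to 1484 ± 68.0 and 1647 ± 102 CPM, with Myh11 at 0 in sham. Notch3, the most abundant of them in sham (log2 fold change -1.07), and Tagln (-0.61) were lower, and Acta2, the most abundant after overload (0.95), and Rgs5 (1.88) were higher, each past the threshold. Of these markers, Col1a2, Ly6a, Dcn, Notch3, Tagln and Rgs5 were named after their values were seen.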
